A study of Homo sapiens with 4 samples.

Results

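Neuroblastoma cells treated with 13-cis retinoic acid (13cRA, isotretinoin) were compared within their own library by whether they held reads of SCG2. Cells were SCG2-positive at 100 CPM (counts scaled to a total of 1e6 per cell) or more and SCG2-negative at 0 counts. Cells had to hold 34000 counts or more and 500 genes or more, and no more than 25% of their counts could come from mitochondrial (MT-) genes. By this rule 364 cells were compared, of 1082 that passed the filters and 1287 in the series. They were 127 positive and 65 negative cells of the 13cRA library, and 131 positive and 41 negative cells of the library given 13cRA with doxazosin.

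The cells were CHP134, an established human neuroblastoma line with amplified MYCN. Every group was treated for 24 h: with DMSO at 0.04% as vehicle, with 13cRA at 5 µM, with doxazosin, an alpha-1 adrenergic receptor blocker, at 10 µM, or with both drugs at these doses. Each treatment was 1 sample. Full-length single-cell libraries of all 4 were made on 1 nanowell chip, so the 2 libraries with 13cRA serve as replicates of the SCG2 comparison while differing in doxazosin. The labels do not say that they came from separate cultures. The p-values cover no spread beyond these libraries, and the spread they use is borrowed almost wholly from other genes.

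SCG2 encodes secretogranin II, a granin: an acidic protein packed into the dense-core granules of neuroendocrine cells and neurons, where it helps granules form. Convertases cut it into peptides such as secretoneurin, which are released with the granule contents. In the sympathoadrenal lineage, from which neuroblastoma arises, granins accompany catecholamine storage. Retinoic acid acts through nuclear receptors that bind DNA as RAR-RXR pairs, and it drives neurite outgrowth and cell cycle exit in many neuroblastoma lines. In GENCODE 29 on GRCh38 the gene lies on the minus strand of chromosome 2, from 223596940 to 223602503.

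SCG2 itself chose the cells, so its levels are a description. In the 13cRA library 51.0% of 249 cells were positive (exact 95% binomial interval 44.6 to 57.4%), 22.9% lay between the limits and 26.1% were negative. In the combination library 48.5% of 270 cells were positive (42.4 to 54.7%), 36.3% lay between and 15.2% were negative. A negative cell has no SCG2 read at its full depth, so the negative share depends on depth. The median negative cell held 66181 counts under 13cRA and 215616 in the combination. Classes were also taken from counts thinned at random to 34000 per cell. Then 78 of 249 cells were negative under 13cRA and 76 of 270 in the combination. The negative shares of these libraries at full depth are therefore not on equal terms. Without 13cRA the positive share was 7.93% of 328 DMSO cells (5.24 to 11.4%) and 11.1% of 235 doxazosin cells (7.36 to 15.8%), which is 26 cells in each. These intervals cover the sampling of cells only. Both libraries with 13cRA stood above both without it, but each condition is 1 sample.

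Among positive cells the median level of SCG2 was 296 CPM in the 13cRA library, with a highest cell at 2563 CPM. It was 232 CPM in the combination library, with a highest cell at 2535 CPM. The 3 lowest positive cells held 101, 101 and 102 CPM under 13cRA, and the 3 highest cells below the limit held 96.9, 95.8 and 95 CPM. In the combination these were 101, 101 and 102 CPM above and 99.9, 99.6 and 98.0 CPM below. Levels ran through the limit without a gap, so the classes are ranges of SCG2 level and are not read as cell types. Whether distinct cell states underlie them was not tested.

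**Figure D1:**
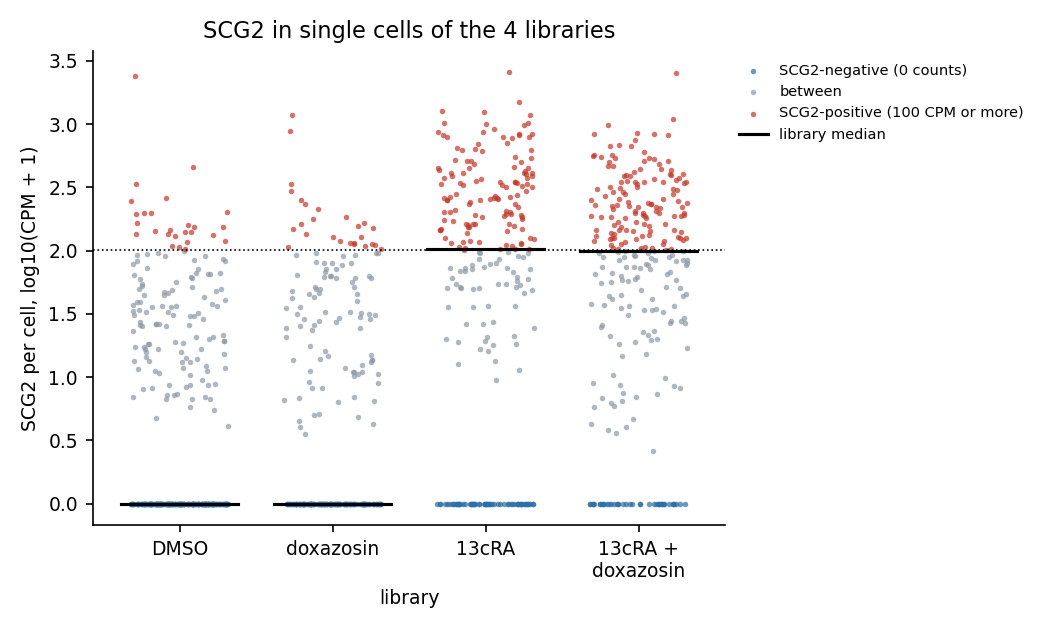
SCG2 level of each kept cell as log10(CPM + 1), by library; colours mark the SCG2 class, the dotted line the limit of 100 CPM and the black bar the library median. The median cell lies near the limit in both libraries with 13cRA (102 CPM, and 97.7 CPM in the combination) and at 0 in both without it.

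The compared classes differed in more than SCG2. Positive cells were deeper before thinning, with a median of 79232 counts against 66181 under 13cRA, and 244349 against 215616 in the combination. Every cell was therefore thinned at random to 34000 counts. At that depth positive and negative cells held a median of 3867 and 3864 genes under 13cRA, and 4653 and 4737 in the combination. The medians hide cells with few genes. At least 3000 genes were held by 121 of 127 positive and 56 of 65 negative cells under 13cRA. In the combination these were 126 of 131 and 39 of 41. The median MT- share was 14.2% against 11.5% under 13cRA and 10.7% against 9.87% in the combination, and was higher in positive cells of both libraries. The part of the MT- share and of depth before thinning in the results was not tested.

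Thinned counts were summed per library and class, which gave 4 sums of 1394000 to 4454000 counts. All 4 held mRNAs of the noradrenergic state that marks this line, among them GATA3 (294 to 479 CPM) and HAND2 (65.3 to 116 CPM), transcription factors of that state. Other markers of the state were low, among them GATA2 (0 to 9.73 CPM) and DDC (1.57 to 5.88 CPM). TH and DBH, enzymes of catecholamine synthesis, had 0 reads in all 4 sums, which allows at most 0.674 to 2.15 CPM. Markers of other cell types were low in both classes. The 10 leukocyte markers summed to at most 3.17 CPM, with PTPRC, CD3E, CD14 and LYZ at 0. The 10 epithelial, 10 Schwann cell and 10 fibroblast markers summed to at most 8.57, 12.7 and 22.0 CPM. The 10 endothelial markers reached 14.3 to 26.9 CPM, mostly from CLDN5, and CLDN5 did not pass the test (adjusted p = 0.843).

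Differences between the classes were tested for 9592 genes with at least 5 CPM on average over the 4 sums, with edgeR's quasi-likelihood test, the library as a block and Benjamini-Hochberg adjustment. SCG2 was left out. At an adjusted p of 0.05, 43 genes (0.448% of those tested) were higher in SCG2-positive cells and 52 (0.542%) were lower, 0.99% in either direction. At an unadjusted p of 0.05, 453 were higher and 480 lower. The count depends on how the spread is estimated: 4 sums leave 1 residual degree of freedom, so the spread is borrowed almost wholly from other genes. With all 8 sums of the 4 libraries in the fit, 9 genes were higher and 3 lower. Without the library block, and with unthinned sums, no gene was called in either direction by edgeR (189 higher and 178 lower at an unadjusted p of 0.05 without the block, 311 and 340 unthinned), while DESeq2 with the block called 9 and 4.

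The calls in the 2 directions were of different quality. Of the 43 higher genes, all went the same way in both libraries by summed CPM, by the mean of per-cell log2 levels and by the share of cells with a read. Of these, 36 were also seen in at least 20% of cells of a class, and 1 of the 43 owed over 50% of its reads to a single cell in at least 1 library. Of the 52 lower genes, 27 went the same way by all measures, 24 of those were seen in at least 20% of cells, and 28 of the 52 owed over 50% of their reads in the negative cells of a library to 1 cell. With each gene's highest cell removed from each sum, 64 genes were higher, 34 of them among the 43, and 39 were lower, 15 of them among the 52. Negative sums held fewer cells (65 and 41) than positive sums (127 and 131). A single cell therefore weighs more in them, and removing it does not act alike on both classes. The part of class size in these counts was not tested.

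**Figure D2:**
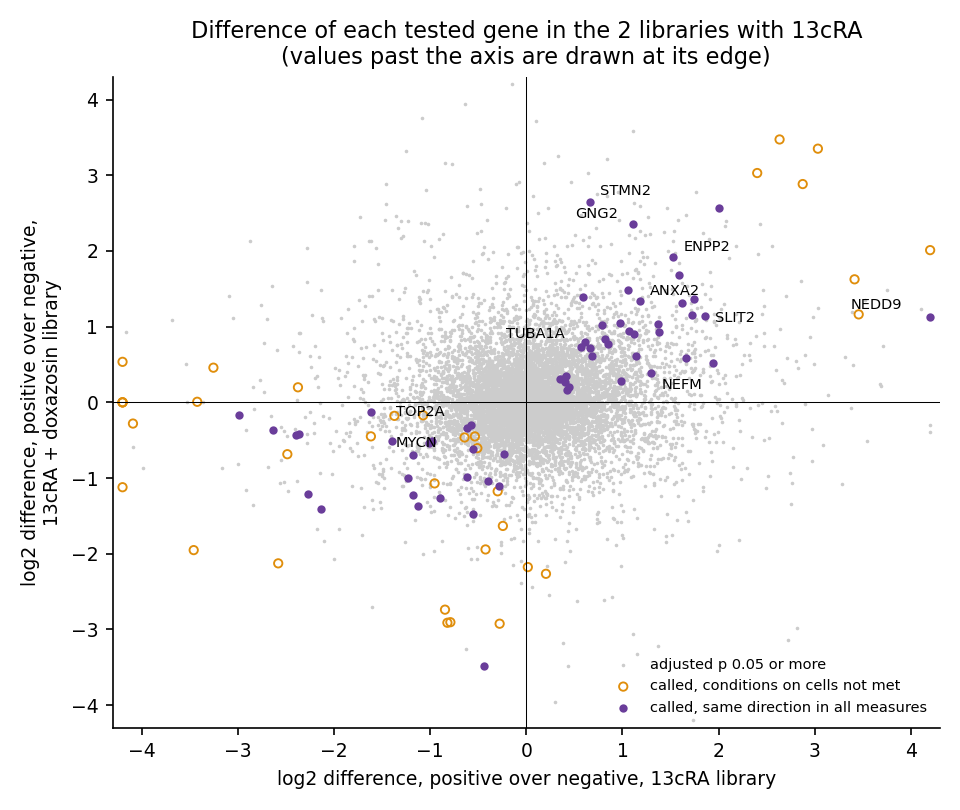
Each tested gene's log2 difference between SCG2-positive and SCG2-negative cells in the 13cRA library (x axis) and in the combination library (y axis). Filled purple points are called genes that went the same way in every measure and were seen in at least 20% of cells, open orange points are the other called genes, and 11 genes past 4.2 are drawn at the edge.

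Among the higher genes 4 were also called in each of 5 other fits, namely the fit to 8 sums, DESeq2, limma on per-cell log2 levels and the fits with either 13cRA library left out. They were ENPP2, TUBA1A, ANXA2 and ASS1, and none of them was called without the library block or with unthinned sums. Each fit with a 13cRA library left out took the difference from the remaining 13cRA library alone. Its spread came from other genes and from the libraries without 13cRA. A call lost there may also reflect this change of fit. ENPP2 encodes autotaxin, the secreted enzyme that makes lysophosphatidic acid. It stood at 575 CPM in positive and 199 CPM in negative cells under 13cRA, and at 484 and 127 CPM in the combination, so both positive sums lay above both negative sums. The log2 difference was 1.70 ± 0.15 (SE, 2 libraries, adjusted p = 2.55e-19). Reads of ENPP2 were found in 78.0% of positive and 40% of negative cells under 13cRA, and in 81.7 and 63.4% in the combination.

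TUBA1A, the main alpha-tubulin isotype of growing neurons, was at 3802 and 2406 CPM under 13cRA and at 5056 and 3075 CPM in the combination. Its log2 difference was 0.67 ± 0.08 (adjusted p = 1.93e-10), and the classes did not overlap. ANXA2, annexin A2, a calcium-dependent phospholipid-binding protein that takes part in granule exocytosis in chromaffin cells, was at 282 and 124 CPM under 13cRA. In the combination it was at 375 and 148 CPM, for a log2 difference of 1.24 ± 0.16 (adjusted p = 3.84e-09). ASS1, argininosuccinate synthase of arginine synthesis, was at 522 and 289 CPM under 13cRA and at 560 and 329 CPM in the combination, with a log2 difference of 0.79 ± 0.13 (adjusted p = 1.37e-05). ASS1 and NDRG4 were picked out after their values were seen. NDRG4, a cytoplasmic protein abundant in neurons, was at 460 and 210 CPM and at 311 and 165 CPM, and kept its call in each of these fits except the one without the 13cRA library.

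Of 33 tested neurofilament, stathmin and growth cone genes, 3 were higher and 0 lower, with a median log2 difference of 0.14 against 0.00 over all genes tested. Beside this and each list below stand the shares over all genes tested, 0.448% called higher and 0.542% called lower. STMN2, a microtubule-destabilising protein of growth cones, was at 155 CPM in positive and 97.7 CPM in negative cells under 13cRA, and at 199 and 30.8 CPM in the combination. Its log2 difference was 1.52 ± 0.23 (adjusted p = 9.12e-07), and the larger part came from the combination library (2.65 against 0.66). Without the combination library the call was lost (0.62, adjusted p = 0.252), as it was with 8 sums (adjusted p = 0.102) and with DESeq2. NEFM, the medium neurofilament subunit, differed mostly under 13cRA alone, at 531 and 215 CPM there and at 275 and 209 CPM in the combination. It was called over both (0.84 ± 0.15, adjusted p = 7.08e-05), and the call was lost without the 13cRA library (0.39, adjusted p = 0.999).

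GAP43, a membrane protein of growth cones, was at 144 and 72.9 CPM under 13cRA and at 110 and 53.1 CPM in the combination, a log2 difference of 1.00 ± 0.23 (adjusted p = 0.00679). The call was lost without the 13cRA library (adjusted p = 0.676), without the combination library (0.95, adjusted p = 0.203) and without the cells called G1 (0.70, adjusted p = 0.281). The growth cone genes outside these 3 did not pass, DCX among them, a microtubule-binding protein of migrating neurons, with log2 1.25 ± 0.45 and an adjusted p of 0.215. Of 12 tested axon guidance genes, 1 was higher and 0 lower. This was SLIT2, a secreted ligand of ROBO receptors, at 196 and 53.4 CPM under 13cRA and at 120 and 53.8 CPM in the combination (log2 1.52 ± 0.23, adjusted p = 6.85e-07). Without the 13cRA library the difference of SLIT2 was 1.15 and its adjusted p 0.991. Its receptor gene ROBO1 had a log2 difference of 0.22 ± 0.29 and did not pass.

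ENPP2, ANXA2, STMN2 and SLIT2 were among the 12 genes with the largest positive differences of those called, seen in at least 20% of cells of a class and higher in both libraries by all 3 measures. Some called genes outside these conditions, CLU among them, had larger fitted differences. Of the remaining genes of the 12, SYNPO2, an actin-binding protein, was at 101 and 29.4 CPM under 13cRA and at 105 and 40.2 CPM in the combination, a log2 difference of 1.57 ± 0.28 (adjusted p = 7.08e-05). CADM1, a cell adhesion molecule of synapses, was at 59.3 and 19.0 CPM and at 48.3 and 14.3 CPM (1.67 ± 0.38, adjusted p = 0.00392). The scaffold gene NEDD9, which acts in focal adhesions, was at 34.0 CPM in positive cells under 13cRA against 1 read in the negative ones, and at 23.1 and 10.0 CPM in the combination (adjusted p = 0.00238). The small GTPase gene RHOC was at 30.3 and 6.79 CPM and at 17.7 and 2.15 CPM (adjusted p = 0.0103). Both were found in few cells: NEDD9 had reads in 22.0 and 26.0% of positive cells.

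PIK3R1, the regulatory subunit of PI3-kinase, was at 204 and 97.7 CPM under 13cRA and at 140 and 49.5 CPM in the combination (log2 1.24 ± 0.21, adjusted p = 2.19e-05). RGS16, which speeds GTP hydrolysis on G protein alpha subunits, was at 176 and 52.5 CPM and at 75 and 33.0 CPM (1.47 ± 0.26, adjusted p = 3.84e-05). GNG2, a G protein gamma subunit, was at 32.4 and 14.5 CPM and at 73.9 and 13.6 CPM, with the wider gap in the combination (1.75 ± 0.39, adjusted p = 0.00361). PLEKHA6, a pleckstrin homology domain protein, was at 79.7 and 25.3 CPM and at 74.8 and 29.4 CPM (1.48 ± 0.32, adjusted p = 0.00189). All 12 kept their direction in each fit with another tool or with a library left out. The call was kept by 12 with limma, 6 with DESeq2, 3 with 8 sums, 3 without the 13cRA library and 6 without the combination library.

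A list of 9 genes that stood far above vehicle under 13cRA in an earlier look at these data had 4 members higher and 0 lower, namely ENPP2, SLIT2, RGS16 and PLEKHA6, with a median log2 difference of 0.95. That list was chosen on these libraries and is not independent evidence of its direction. Of 16 tested retinoid response genes from general knowledge, 1 was higher and 0 lower, with a median of 0.04. RARB, a retinoic acid receptor that retinoids induce, was at 23.4 and 18.6 CPM and at 27.8 and 7.17 CPM and did not pass (1.02 ± 0.49, adjusted p = 0.470). RXRA, the partner receptor, had a log2 difference of 1.85 ± 0.54 and an adjusted p of 0.0624.

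None of the other granins tested passed the threshold. CHGA, chromogranin A, was at 49.1 CPM in positive and 30.3 CPM in negative cells under 13cRA and at 16.6 and 20.8 CPM in the combination (log2 0.21 ± 0.40, adjusted p = 0.949). CHGB, chromogranin B, pointed opposite ways in the libraries, at 24.5 and 35.3 CPM and at 50.7 and 24.4 CPM (0.22 ± 0.38, adjusted p = 0.942). SCG3, secretogranin III, a partner of chromogranin A in granules, was at 82.4 and 74.2 CPM and at 79.7 and 99 CPM (-0.10 ± 0.25, adjusted p = 0.966). SCG5 and VGF lay at or under 3.62 CPM in all 4 sums and were not tested. A p that misses the threshold does not show that these levels are equal.

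Of 10 tested genes for granins and prohormone processing, 1 was higher and 0 lower, and the median log2 difference was 0.47. That median was 0.17 without the 13cRA library and 0.66 without the combination library. The gene called was CLU, clusterin, a secreted chaperone, at 28.9 and 1.81 CPM under 13cRA and at 6.51 and 1.43 CPM in the combination (adjusted p = 0.0114), and it was not called with either library left out. The negative sums of CLU rest on few reads, and its highest cell gave 26.4% of the reads of positive cells in 1 library. PAM, which amidates peptides in granules, had a log2 difference of 0.75 ± 0.41 and did not pass (adjusted p = 0.581). Of 23 genes for dense-core vesicle release, 0 were called in either direction by edgeR, at a median of 0.16 that turned to -0.10 without the combination library. The closest was DNAJC5, a vesicle chaperone, at 54.2 and 96.8 CPM and at 36.6 and 78.2 CPM (-0.98 ± 0.28, adjusted p = 0.0520). Of 30 neuropeptide and receptor genes 4 passed the filter of 5 CPM and 0 were called, SSTR2, a somatostatin receptor, being at 280 and 241 CPM and at 190 and 157 CPM.

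Noradrenergic identity genes were not called either, 0 of 17 in either direction, with a median of 0.10. ISL1, a LIM homeodomain factor, had a log2 difference of -1.20 ± 0.50 (adjusted p = 0.336), where 1 cell gave 71.6% of the reads in negative cells of a library. Of 13 tested mesenchymal genes 0 were called and the median was -0.31, which turned to 0.12 without the 13cRA library. REST, which silences neuronal genes in non-neuronal cells, was at 27.8 and 33.0 CPM under 13cRA and at 27.6 and 33.0 CPM in the combination (-0.27 ± 0.38, adjusted p = 0.922). Of 14 silencer factors tested, 0 were called, with a median of -0.03 (-0.20 without the 13cRA library and 0.07 without the combination library). Of 19 immediate early and CREB target genes 0 were called, with a median of 0.29 (0.06 and 0.13 with the same libraries left out).

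MYCN, the amplified oncogene of this line, was lower in SCG2-positive cells. It was at 908 CPM in positive and 1398 CPM in negative cells under 13cRA, and at 753 and 951 CPM in the combination, so that the positive cells of 13cRA lay below the negative cells of both libraries. The log2 difference was -0.50 ± 0.11 (adjusted p = 0.00184). The call was kept without the highest cells (-0.53) and without the cells called G1 (-0.49), and was lost without the 13cRA library (-0.35, adjusted p = 0.896) and with 8 sums (adjusted p = 0.0524). Neither DESeq2 nor limma called MYCN, so 1 of the 5 other fits did, the one without the combination library. Of 31 tested MYC target and ribosome biogenesis genes, 0 were called in either direction, while 23 were lower in both libraries and 4 higher in both, and their median was -0.21. Over all genes tested, 25.2% were lower in both libraries and 28.9% higher in both.

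The other lower genes were led by genes whose reads came from few cells. Of the 12 with the largest negative difference under the same conditions on cells, the single highest cell gave 15.7 to 84.4% of the reads in negative cells of a library. For the 12 largest positive differences this share was 5.58 to 13.6% in positive cells, which were more numerous, so the shares are not on equal terms. SMO, the Smoothened receptor of hedgehog signalling, was at 25 and 125 CPM under 13cRA and at 7.18 and 17.9 CPM in the combination (log2 -1.94 ± 0.37, adjusted p = 0.000244). Without its highest cells its difference was -0.90 with an adjusted p of 0.472. GKAP1, SLITRK5, TRIB2, ZNF587, AUNIP, RAP1A, CDC25A, NUF2 and SMU1 also lost their call without their highest cells (adjusted p of 0.0781 to 0.884), and all 12 kept their direction. SLITRK5 then stood at -1.87 and NUF2 at -0.83, beside -2.03 and -1.11 with all cells.

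Of the 12, SLC7A5 and MAP7D2 kept their call. SLC7A5, a large neutral amino acid transporter, was at 31.7 and 70.6 CPM under 13cRA and at 24.0 and 63.8 CPM in the combination (log2 -1.30 ± 0.33, adjusted p = 0.0147). MAP7D2, a microtubule-associated protein, was at 35.2 and 83.7 CPM and at 33.7 and 68.1 CPM (-1.15 ± 0.31, adjusted p = 0.0253). Neither was called with 8 sums or with a library left out. Among lower genes outside the rule, XPO5, the exporter of precursor microRNAs, was picked after its values were seen because edgeR's fit to 8 sums, DESeq2 and limma all called it. It was at 200 and 395 CPM under 13cRA and at 266 and 378 CPM in the combination (-0.77 ± 0.15, adjusted p = 0.000260). The larger difference of XPO5 was in the 13cRA library (-0.98 against -0.51), and its call was lost without that library.

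A few proliferation genes were lower. Of 42 tested S phase genes, 0 were higher and 1 lower, with 25 lower in both libraries, 2 higher in both and a median log2 difference of -0.27. The one called was NASP, a histone chaperone of DNA replication, at 929 and 1092 CPM under 13cRA and at 530 and 854 CPM in the combination (-0.48 ± 0.11, adjusted p = 0.00694), and the call was lost without the combination library (-0.27, adjusted p = 0.542). Of 53 G2/M genes, 0 were higher and 3 lower, with 30 lower in both libraries and 4 higher in both. Their median was -0.16 (-0.09 without the 13cRA library and -0.35 without the combination library). Over all genes tested, 25.2% were lower in both libraries, 28.9% higher in both and 0.542% called lower. TOP2A, topoisomerase II of mitotic chromosomes, was at 757 and 1131 CPM and at 826 and 1014 CPM (-0.46 ± 0.11, adjusted p = 0.00823), and the call was lost without the 13cRA library (-0.31, adjusted p = 0.999). CKAP5, a microtubule polymerase of the spindle, had -0.51 ± 0.14 and NUF2, a kinetochore protein, -1.11 ± 0.26, and neither was called with either library left out. MKI67, a proliferation marker, did not pass (-0.35 ± 0.19, adjusted p = 0.584).

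Cell cycle inhibitors did not pass in the opposite direction. Of 19 G1 and cell cycle exit genes, 0 were called, with 11 higher in both libraries, 3 lower in both and a median of 0.21. Over all genes tested, 28.9% were higher in both and 25.2% lower in both. CDKN1A and CDKN1B had log2 differences of 0.17 ± 0.31 and -0.10 ± 0.26. Phase calls from S and G2/M scores gave G1 to 19.7% of positive cells under 13cRA (25 of 127, exact 95% interval 13.2 to 27.7%) and to 4.62% of negative ones (3 of 65, 0.962 to 12.9%). In the combination the shares were 15.3% (20 of 131, 9.58 to 22.6%) and 2.44% (1 of 41, 0.0617 to 12.9%). A called G1 means low S and G2/M scores, not a measured cycle state, and the calls use the genes of the 2 lists above.

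**Figure D3:**
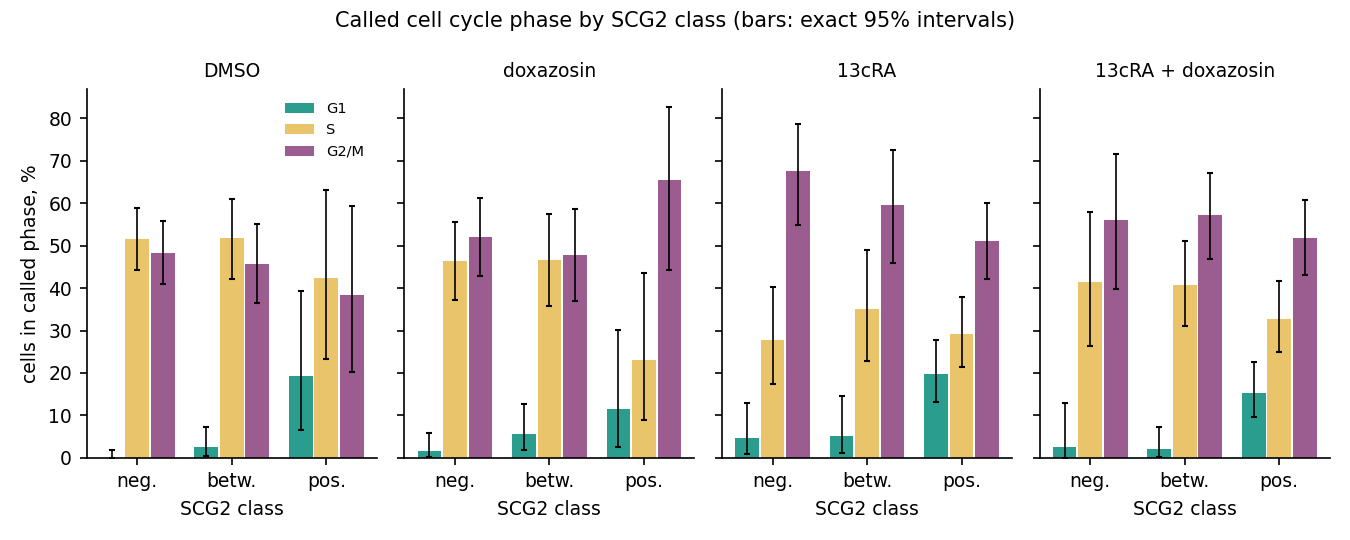
Share of cells in each called phase by SCG2 class and library, with exact 95% binomial intervals as bars. The G1 share of positive cells is above that of negative cells in each of the 4 libraries, at 19.7 against 4.62% under 13cRA and 15.3 against 2.44% in the combination.

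Since called phase moves with the SCG2 class, the test was run again without the cells called G1. There were then 22 higher genes, all among the 43, and 47 lower genes, 42 of them among the 52. ENPP2 (log2 1.36), TUBA1A (0.51) and ANXA2 (1.13) were still called. TOP2A (-0.27, adjusted p = 0.416), NASP (-0.37, adjusted p = 0.106), CKAP5 (-0.44, adjusted p = 0.164) and NUF2 (-0.90, adjusted p = 0.0747) were not. The medians moved to -0.04 for G2/M and -0.11 for S phase genes, and to -0.16 for MYC targets.

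All 13 mitochondrially encoded mRNAs were higher in positive cells of both libraries. Of them 6 passed the test, with log2 differences of 0.27 to 0.36, and 0 were lower. Over all genes tested, 28.9% were higher in both libraries and 0.448% were called higher. MT-CO2, a cytochrome c oxidase subunit, was at 17129 and 13142 CPM under 13cRA and at 10945 and 8878 CPM in the combination (0.32 ± 0.06, adjusted p = 0.000597). MT-CYB, of complex III, had 0.36 ± 0.08 and MT-ND4, of complex I, 0.32 ± 0.07. This direction depends on the limit of 25% MT- counts: with no limit the list's median was -0.29, and MT-CO2 stood at -0.26, MT-ND4 at -0.23, MT-CYB at -0.09 and MT-ATP6 at -0.30. Of 50 nuclear oxidative phosphorylation genes 0 were called, with a median of -0.01.

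Housekeeping and stress lists held no called gene in either direction by edgeR. The medians were -0.09 for 61 cytosolic ribosomal protein genes, -0.08 for 26 unfolded protein and stress response genes, -0.09 for 25 glycolysis and hypoxia genes, 0.06 for 21 cholesterol synthesis genes and 0.24 for 10 nuclear-retained noncoding RNAs. Among these HSPA5, the main chaperone of the endoplasmic reticulum through which granins are folded, was at 307 and 258 CPM under 13cRA and at 251 and 154 CPM in the combination (0.45 ± 0.16, adjusted p = 0.198). MALAT1, a nuclear-retained long noncoding RNA, had 0.18 ± 0.10 (adjusted p = 0.570).

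**Figure D4:**
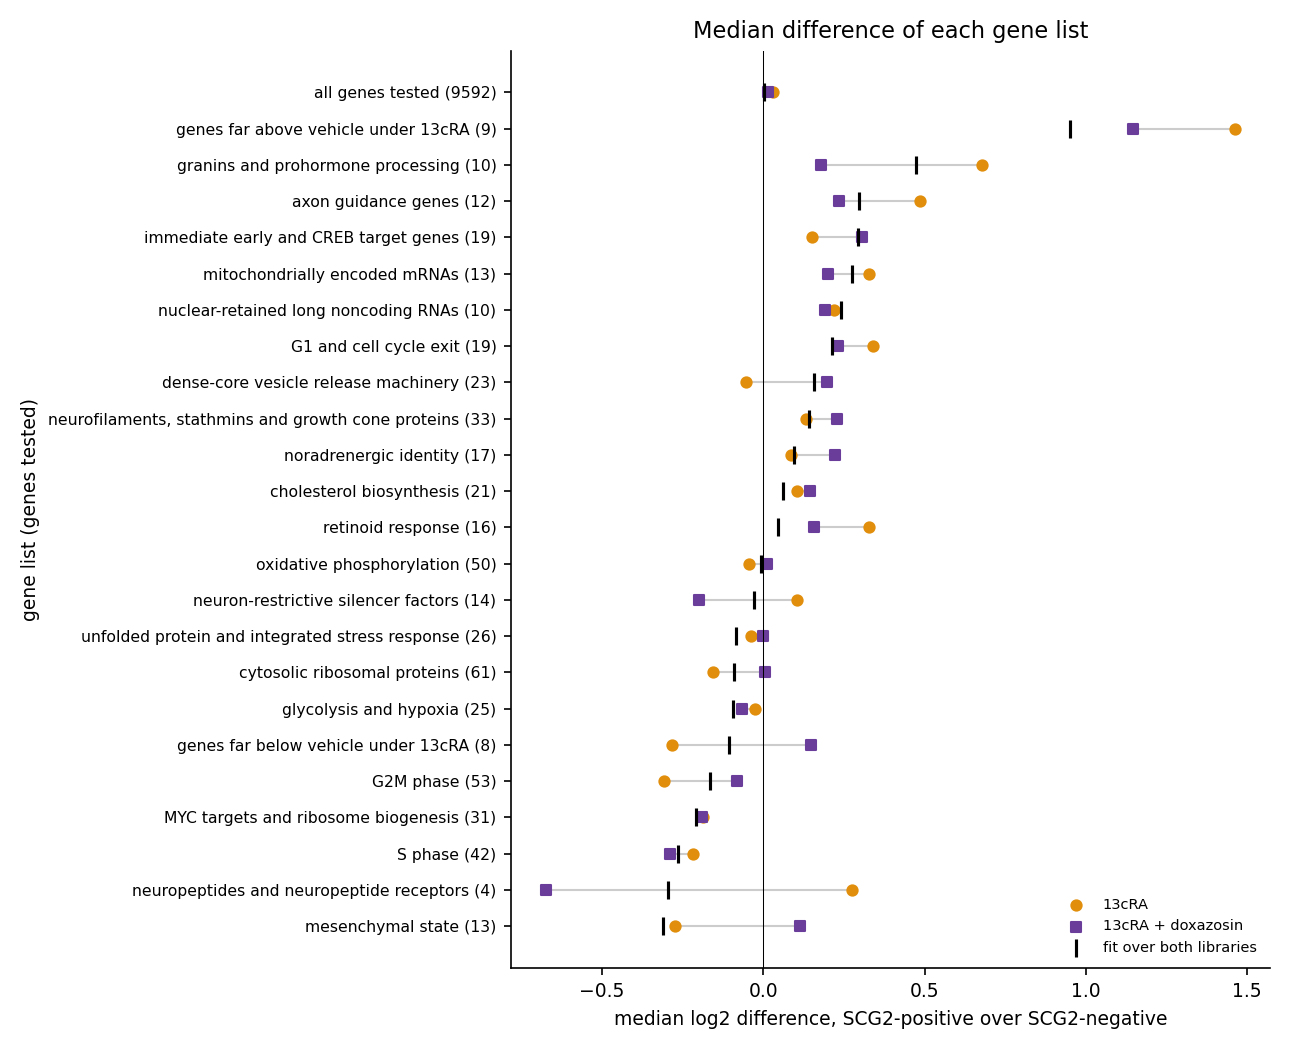
Median log2 difference of each gene list with at least 4 tested genes, in the 13cRA library (circles), in the combination (squares) and in the fit to both (bars), with the number of genes tested in brackets. The list chosen for its rise under 13cRA lies farthest to the right (0.95 in the fit), the S phase list lies at -0.27 and all genes at 0.00.

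Cells with SCG2 between the limits entered no test. Their level lay between those of negative and positive cells in both 13cRA libraries for 35 of the 43 higher genes and for 17 of the 52 lower ones, against 13.2% of all genes tested. Called genes were chosen for a wide gap between these classes, which alone makes a level in between more likely. The share over all genes is therefore no fair baseline, and a graded relation to SCG2 was not tested. ENPP2 was at 199, 455 and 575 CPM in negative, intermediate and positive cells under 13cRA, and at 127, 242 and 484 CPM in the combination. SLIT2 was at 53.4, 131 and 196 CPM and at 53.8, 83.1 and 120 CPM. MYCN ran the other way, at 1398, 1043 and 908 CPM and at 951, 913 and 753 CPM. STMN2 was an exception under 13cRA, where intermediate cells had 71.7 CPM, below both other classes.

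**Figure D5:**
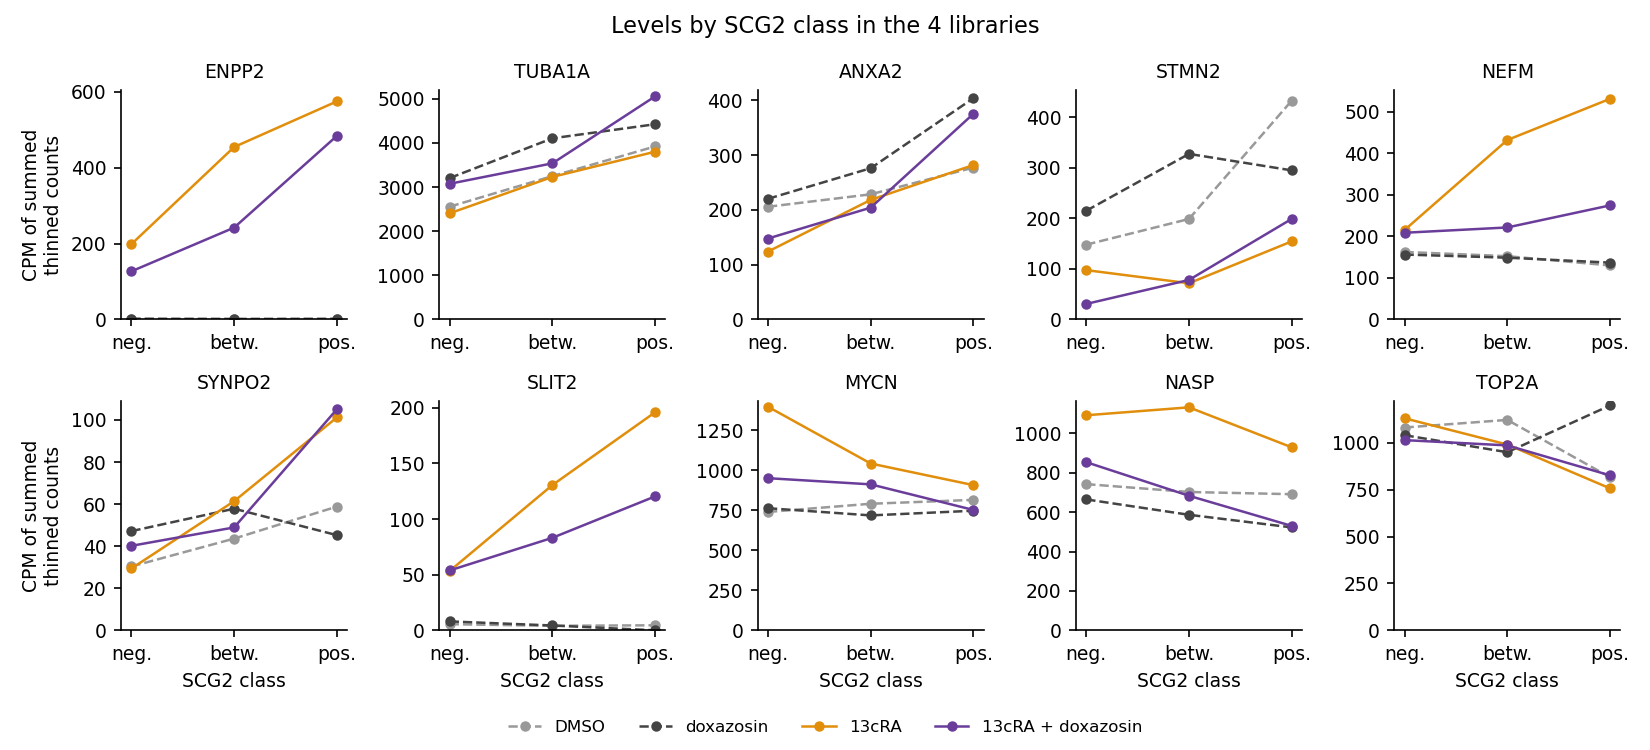
Level of 10 genes (CPM of summed thinned counts, axes from 0) in SCG2-negative, intermediate and positive cells of each library. Solid lines are libraries with 13cRA and dashed lines those without; ENPP2 climbs from 199 to 575 CPM under 13cRA and stays at or below 2.26 CPM in DMSO and doxazosin cells.

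The same split was made in the libraries without 13cRA, where positive cells were few (26 in each). In the fit to 8 sums, 6 of 9543 genes (0.0629%) differed there at an adjusted p of 0.05. TUBA1A was again higher, at 3922 and 2557 CPM in DMSO and 4424 and 3205 CPM in doxazosin cells (log2 0.57, adjusted p = 0.00112). MT-ND4, MT-CYB, MT-CO2 and the mitochondrial rRNA MT-RNR2 were higher by 0.22 to 0.35, and PRMT7, an arginine methyltransferase, was lower. List medians without 13cRA were -0.29 for S phase, -0.11 for G2/M and -0.20 for MYC target genes. They were 0.26 for G1 and cell cycle exit genes and 0.28 for mitochondrially encoded mRNAs. With 13cRA the medians were, in this order, -0.27, -0.16, -0.21, 0.21 and 0.27 in the fit to 4 sums. The axon guidance median was -0.17 without 13cRA and 0.30 with it. No list was tested. ENPP2 was at 2.26 and 1.11 CPM in DMSO and at 1.13 and 1.94 CPM in doxazosin cells, and SLIT2 at 4.52 and 5.53 CPM in DMSO cells. Each positive sum there held 884000 counts, where 3 counts make 3.39 CPM. These levels therefore rest on few reads, and a difference between classes could not be read from them. MYCN was at 816 and 740 CPM in DMSO and at 748 and 763 CPM in doxazosin cells, beside 908 and 753 CPM in the positive cells of the libraries with 13cRA, a comparison between libraries that was not tested.

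Whether the SCG2 difference itself depended on 13cRA was tested by the interaction in that fit. The count was 0 of 9543 genes (0%) at an adjusted p of 0.05 by edgeR, with a smallest adjusted p of 0.500 and 433 genes at an unadjusted p of 0.05. It was 0 as well with DESeq2 size factors, at 50 CPM, at a mean of 20 CPM and with unthinned counts. MYCN had an unadjusted p of 0.000642, NEFM of 0.000882 and SLIT2 of 0.00142, each with an adjusted p of 0.988. A difference seen with 13cRA and not without it is therefore not shown to depend on the drug in these data.

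Across single thinned cells, ENPP2, TUBA1A, SYNPO2 and ANXA2 were the 4 genes reported here among the 5 whose level followed SCG2 most closely in both 13cRA libraries, of 5922 compared. Their Spearman correlations with SCG2 were 0.41, 0.38, 0.33 and 0.33 over 249 cells under 13cRA. Over 270 cells of the combination they were 0.39, 0.44, 0.37 and 0.35. These describe cells that share a library and a fixed depth, and the same cells set the classes above.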

How the data were processed

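The authors deposited 1 table of raw read counts per gene and cell (60651 gene IDs, 1287 cells, whole numbers, no molecular identifiers). The submitters' processing notes name STAR 2.7.8a, featureCounts, fastp 0.23.3, Seurat 4.3.0 and bcl2fastq. The annotation and strandedness are not stated there, so overlapping or near-identical genes are uncertain. Column names give each cell's library and no barcode, so shared barcodes could not be counted. Symbols were matched for 60437 IDs, and 1195 IDs with a repeated symbol kept their ID.

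Cells were filtered as stated in the opening. No doublet caller was run, since wells were chosen by imaging per the labels' protocols. Counts were thinned to 34000 per cell and summed per library and SCG2 class. The sums were tested with edgeR 4.0.16 (TMM factors, quasi-likelihood, library as block, 1 residual and 175 prior degrees of freedom, two-sided). Standard errors are the log2 difference over the root of F, so they too rest on the spread borrowed from other genes. Alternatives used DESeq2 1.42.0 and limma 3.58.1, and scanpy called phases. Differences within a library are log2((CPM + 1)/(CPM + 1)). Intervals of shares are exact (Clopper-Pearson, 95%), and the limit for a count of 0 is 3 counts; both cover counting error only. The procedure was tested on simulated sums with the kind of spread that the test assumes and no outlying cells. That run cannot speak to calls that rest on single cells.

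Named were the 12 largest differences in each direction among called genes with a symbol that were seen in at least 20% of cells of a class and went the same way in both libraries in 3 measures, up to 4 members of each of 28 lists, 16 further genes besides SCG2, and 5 genes most like SCG2 with at least 20 CPM. The rule, lists and cells were chosen with earlier results of these data known. Lists are described by counts and medians with no test. The values of 2 genes that the rule names are not reported here.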

Additional observations from a re-analysis of the deposited data

How the results depend on the processing

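The 43 higher and 52 lower genes rest on a fit with 2 libraries and 21 alternatives were run. Counts stayed within 1.5 times of both with library size only, with another thinning draw, at 200 CPM and without each gene's highest cell. A like count did not mean the same genes. Another thinning draw called 46 higher genes, 33 of them among the 43, and 51 lower genes, 38 of them among the 52. Of the 12 named in each direction, 11 higher and 9 lower genes kept their call in that draw. At 200 CPM 37 of the 43 and 42 of the 52 were called again. In the order higher and lower the counts were 9 and 3 with 8 sums, 17 and 16 with DESeq2 size factors, 25 and 15 at a mean of 20 CPM, 26 and 15 with the class from thinned counts, 16 and 15 in cells of 34000 to 120000 counts, 7 and 8 with no limit on MT- counts, 4 and 0 in cells called G1, and 9 and 4 with DESeq2. With no replicate block for the library the counts were 0 and 0, and with unthinned counts 0 and 0. Lower genes alone moved to 21 with no filter on low genes, 32 at 50 CPM, 24 with at least 3000 genes and 12 with limma, and higher genes to 22 without cells called G1. Of the 24 lower genes found in cells with at least 3000 genes, 13 were among the 52. Leaving out the 13cRA library gave 5 and 13 and leaving out the combination library 38 and 67, a range of 5 to 38 and of 13 to 67. The cause of these moves was not tested.

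In cells called G1, of which only 4 were negative, the median over all genes was 0.64, and 8 lower genes took a positive sign. RAP1A (5.35), SLC7A5 (1.58), CDC25A (5.72) and NASP (1.05) lay above that median. TRIB2 (0.19), AUNIP (0.43), TOP2A (0.61) and CKAP5 (0.076) lay below it. With so few negative cells, these values cannot tell whether any of the 8 genes was higher or lower among cells called G1. With no limit on MT- counts MT-CO2 (-0.26), MT-ND4 (-0.23), MT-CYB (-0.087) and MT-ATP6 (-0.30) reversed. No other call of a named gene changed sign under the alternatives fitted. The share of positive cells under 13cRA was 63.1% at 50 CPM and 33.7% at 200 CPM, and in the combination 64.1 and 28.5%. Of 519 list medians under alternatives, 368 moved by less than the spread between the 2 libraries. Removing the highest cells and the cells called G1 were alternatives chosen after seeing the data.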

Other observations

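Outside the naming rule, 5 genes had the most negative rank correlation with SCG2 over single cells of both 13cRA libraries: NCL, HSPA8, MRTO4, ORC6 and NASP. NCL, nucleolin of ribosome assembly, had -0.23 under 13cRA and -0.26 in the combination. NASP had -0.22 and -0.35. These values were chosen after the ranking was seen and are a description.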
